A study of Rattus norvegicus with 8 samples.

Results

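Red blood cells carry a small set of very abundant microRNAs (miRNAs), and 4 of the 758 rat miRNAs on the array belong to that set by name: rno-miR-451-5p, rno-miR-144-3p, rno-miR-144-5p and rno-miR-486, written here without the species prefix. They were found by exact match of the miRNA name among the non-control spots, and all 4 names were present, each with 2 probes of 8 spots. The samples were synovial tissue, the lining of the joint, from left knees of Sprague-Dawley rats, taken from the side of the knee opposite the incision. In 4 samples the anterior cruciate ligament had been exposed and cut (anterior cruciate ligament transection, ACLT), which the labels describe as a model of osteoarthritis. In the other 4 it had been exposed and left whole (sham), so both groups had an operated knee. The treatment protocol puts tissue collection at 2 weeks and the series title at 14 days, whereas the design text gives 7 days. Age and sex are not given in the sources used here, nor whether each numbered replicate came from its own animal. The p-values therefore speak only to the variation among these 8 samples, part of which may be technical. The question asked of these miRNAs was whether the blood content of the tissue differed between arrays, and whether it differed between ACLT and sham.

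In mammals miR-144 and miR-451 are cut from a shared primary transcript that the erythroid transcription factor GATA1 switches on as red cell precursors mature. miR-451 is made without the enzyme Dicer: its short hairpin is cut by Argonaute 2 and trimmed, so that the guide strand runs into the loop and no stable partner strand is left. In mice it represses Ywhaz and protects red cells against oxidative damage. miR-486, which in mice and humans lies within the ankyrin 1 gene, is abundant in red cells and also in skeletal and heart muscle. Mature red cells keep these miRNAs after losing their nucleus, so in a solid tissue their signal can come from blood in its vessels or from bleeding. In bulk RNA, fewer cells of a type and less of the RNA per cell cannot be told apart.

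The mature sequences of 3 of the 4 members, all but miR-486, were matched in RefSeq (build GRCr8). They are shown because these 3 do not share a seed, the bases 2 to 8 by which a miRNA pairs with its targets. The seed is in capitals, and each sequence reads 5′ to 3′.
miR-451-5p: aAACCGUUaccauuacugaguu
miR-144-3p: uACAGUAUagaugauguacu
miR-144-5p: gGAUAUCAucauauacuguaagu
The 3 seeds are all distinct. Of 103 tested miRNAs with a RefSeq sequence, only miR-101a-3p and miR-101b-3p share bases 2 to 7 with a member, namely with miR-144-3p, and neither shares base 8. Their differences, ACLT minus sham, were -0.08 (SE 0.22; limma adjusted p = 0.964) and 0.20 (SE 0.15; limma adjusted p = 0.832).

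The hairpins of Mir144 (chr10:63459397-63459479, plus strand, GRCr8) and Mir451a (chr10:63459569-63459640, plus strand, GRCr8) lie 89 bases apart, each annotated as a miRNA gene. The array files name build rn4 and no coordinate was taken from them. The hairpins are printed to show where each mature strand lies. Capitals mark miR-144-5p and miR-144-3p in the first and miR-451-5p in the second.
Mir144: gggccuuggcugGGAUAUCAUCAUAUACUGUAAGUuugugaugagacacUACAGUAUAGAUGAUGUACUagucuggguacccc
Mir451a: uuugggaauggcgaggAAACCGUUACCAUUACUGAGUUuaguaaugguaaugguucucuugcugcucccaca
In Mir144 the 2 mature strands occupy bases 13 to 35 and 50 to 69, on either side of the loop that RNAfold predicts at bases 38 to 43. In Mir451a the mature strand occupies bases 17 to 38 of 72 and takes in the whole predicted loop, bases 35 to 38.

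Of these strands, miR-451-5p and miR-144-3p were called detected by the scanner software on all 8 arrays, and miR-486 likewise. miR-144-5p was detected on 1 of 4 ACLT arrays and 1 of 4 sham arrays, and the opposite strand of the Mir451a hairpin, miR-451-3p, on 0 of 8. The brighter miR-144-5p probe gave 8.12, 12.2, 1.36 and 1.50 units of processed signal on ACLT replicates 1 to 4, against 1.87, 4.11, 6.31 and 22.1 on sham replicates 1 to 4. It was well above background on sham replicate 4 alone, at the scaled floor on every array, and was not tested.

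Arrays differed in brightness within each group, which bears on every level. Levels were scaled by the array's 75th percentile, taken over probes that stood well above background throughout, and it ran between 305 and 1097 units in the ACLT group and between 289 and 1185 in the sham group. ACLT replicates 1 and 2 and sham replicate 4 were the 3 brightest. Their labelling spike-in signal, from RNA added before labelling, was 477, 314 and 386, against 137 to 196 on the other 5 arrays. No spot was saturated on any array, and with 4 arrays per group every mean is imprecise.

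miR-451-5p had a lower mean after ACLT, by less than the range of the arrays within either group, and did not pass the test. Its processed signal before scaling was 501, 846, 125 and 159 units on ACLT replicates 1 to 4, against 103, 261, 390 and 1411 on sham replicates 1 to 4. The 3 brightest arrays had the 3 highest signals, and the range over arrays was 13.7-fold. After scaling, its log2 level relative to the array's 75th percentile was -0.67, -0.37, -1.50 and -0.94 on ACLT replicates 1 to 4, against -1.49, -0.28, 0.14 and 0.25 on sham replicates 1 to 4. Each of the 4 ACLT arrays was lower than the mean of the sham arrays, yet sham replicate 1 lay below 3 of them and level with ACLT replicate 3, so the groups overlapped. The mean log2 level was -0.87 ± 0.48 in ACLT samples and -0.35 ± 0.80 in sham samples (SD, n = 4 each). The log2 difference, ACLT minus sham, was -0.53 (SE 0.43, 95% interval -1.55 to 0.50), with an adjusted p = 0.851 by limma with Benjamini-Hochberg adjustment over the 113 miRNAs tested.

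miR-144-3p, from the same primary transcript, had the same order of groups. Its log2 level was -3.17, -2.71, -3.87 and -3.10 on ACLT replicates 1 to 4, against -3.48, -2.26, -2.32 and -2.04 on sham replicates 1 to 4. Sham replicates 2, 3 and 4 stood above every ACLT array, and sham replicate 1 lay below 3 of the 4 ACLT arrays, so these groups overlapped too. The mean was -3.21 ± 0.48 in ACLT samples and -2.53 ± 0.65 in sham samples (SD, n = 4 each), a log2 difference of -0.69 (SE 0.38, 95% interval -1.58 to 0.20; limma adjusted p = 0.732).

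**Figure D1:**
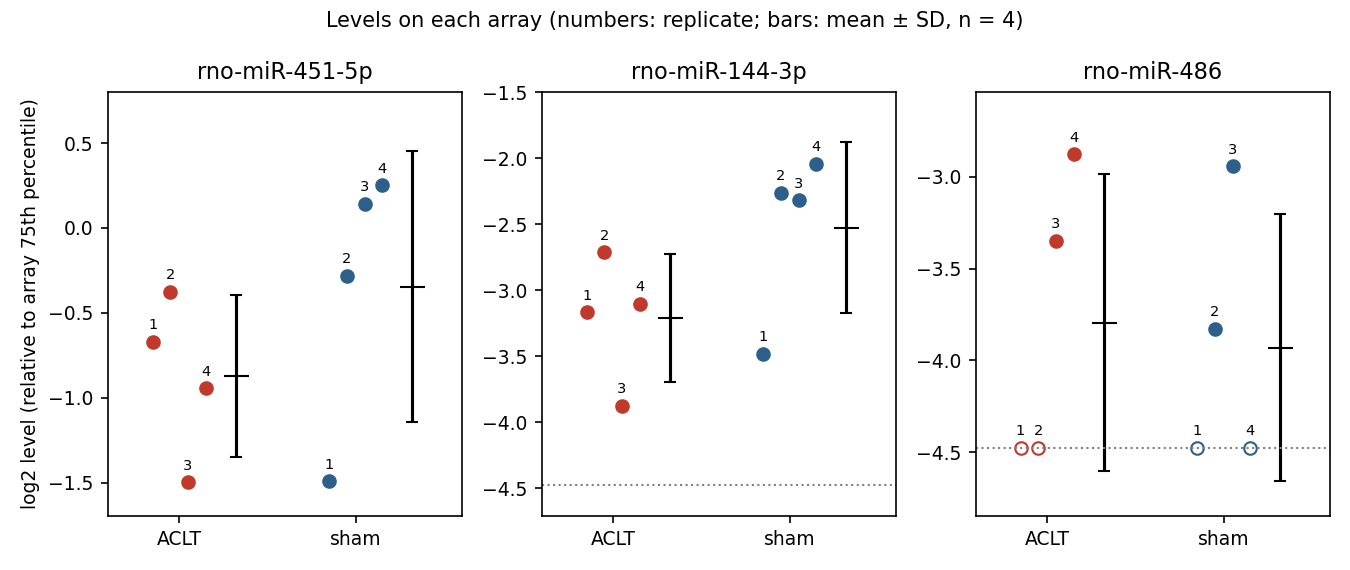
Log2 level on each array for miR-451-5p, miR-144-3p and miR-486 (vertical axis, relative to the array's 75th percentile), ACLT left of sham, with the replicate number above each point and the mean ± SD (n = 4) beside it; open circles lie at the floor of -4.48 (dotted line). For miR-451-5p and miR-144-3p sham replicate 1 sits among the ACLT arrays, while miR-486 is highest on ACLT replicate 4, sham replicate 3 and ACLT replicate 3.

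miR-486 had another order of arrays. Its processed signal was low, at 26.7, 25.2, 34.6 and 41.6 units on ACLT replicates 1 to 4. On sham replicates 1 to 4 it was 12.4, 22.3, 46.0 and 42.0 units, and the range over arrays was 3.71-fold. Sham replicate 3 was highest, followed by the brightest array, sham replicate 4. The other bright arrays, ACLT replicates 1 and 2, lay below ACLT replicates 3 and 4. The brighter miR-486 probe was well above background on 7 of 8 arrays, all but sham replicate 1. After scaling miR-486 was at the floor on 4 of 8 arrays, the 3 brightest and sham replicate 1. The other 4 had log2 levels of -3.35 and -2.88 on ACLT replicates 3 and 4, against -3.83 and -2.94 on sham replicates 2 and 3. The groups overlapped, with means of -3.79 ± 0.81 in ACLT samples and -3.93 ± 0.73 in sham samples (SD, n = 4 each) that are set in part by the floor. The log2 difference was 0.14 (SE 0.51, 95% interval -1.06 to 1.33; limma adjusted p = 0.964), and without the floor it was -0.11.

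By limma, 0 of the 3 tested members passed an adjusted p of 0.05, as did 0 of all 113 tested miRNAs (0%). At an unadjusted p under 0.05 the counts were 0 of 3 members and 8 of 113 miRNAs (7.08%). The groups did not overlap for 0 of 3 members and 0 of 113 miRNAs (0%). The difference was below 0 for 2 of 3 members and for 73 of 113 miRNAs (64.6%), and above 0 for 1 of 3 members and 38 of 113 miRNAs (33.6%). The median difference was -0.53 over the 3 members and -0.07 over all tested miRNAs. The intervals leave room for a mean of miR-451-5p in either direction, so these arrays show neither a change in the red cell miRNAs after ACLT nor its absence.

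Between arrays, whatever the group, the Mir144 and Mir451a products varied more than most miRNAs. Scaled miR-451-5p ranged over 3.36-fold, with sham replicate 4 highest and ACLT replicate 3 lowest, and miR-144-3p over 3.55-fold between the same 2 arrays. The median range of the 78 tested miRNAs above the floor on all arrays was 1.69-fold. Only 9 of the 78, miR-144-3p among them, had a wider range than miR-451-5p, and 7 a wider range than miR-144-3p. The widest ranges of the 78 were far larger, those of miR-133b-3p (146-fold) and miR-1b (106-fold). The coefficient of variation among spots of a probe within an array was 0.694% to 9.90% for the brighter miR-451-5p probe and 1.98% to 14.8% for the brighter miR-144-3p probe. It covers spot noise only, and leaves out variation from labelling, hybridisation and tissue sampling, so the range between arrays may be technical in part.

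The 2 miR-451-5p probes gave the same account. The dimmer one had log2 levels of -2.44, -2.13, -3.15 and -2.71 on ACLT replicates 1 to 4, against -3.12, -1.98, -1.35 and -1.44 on sham replicates 1 to 4, a difference of -0.64. ACLT replicate 3 and sham replicate 1 were again lowest. The dimmer miR-144-3p probe was well above background on 2 arrays and at the floor on all, so it adds no level.

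miR-451-5p and miR-144-3p moved together from array to array. Over the 8 arrays Pearson's r of their log2 levels was 0.955 (exact permutation p = 5e-04, adjusted p = 0.0044 over 8 relations) and Spearman's rho 0.952 (exact permutation p = 0.0011, adjusted p = 0.0091). Without ACLT replicate 3 and sham replicate 1, the arrays farthest from the median of miR-451-5p, r was 0.913. With unscaled signals, which share the array's brightness, it was 0.990. Such a value is not particular to this pair. The unscaled r of miR-451-5p was 0.938 with miR-142-3p and 0.954 with miR-126a-3p, though -0.424 with miR-206-3p. The ratio of miR-144-3p to miR-451-5p within an array, which no scaling touches, ranged over only 1.43-fold. The slide held 4 arrays in each of 2 rows, too few for a correlation within a row.

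**Figure D2:**
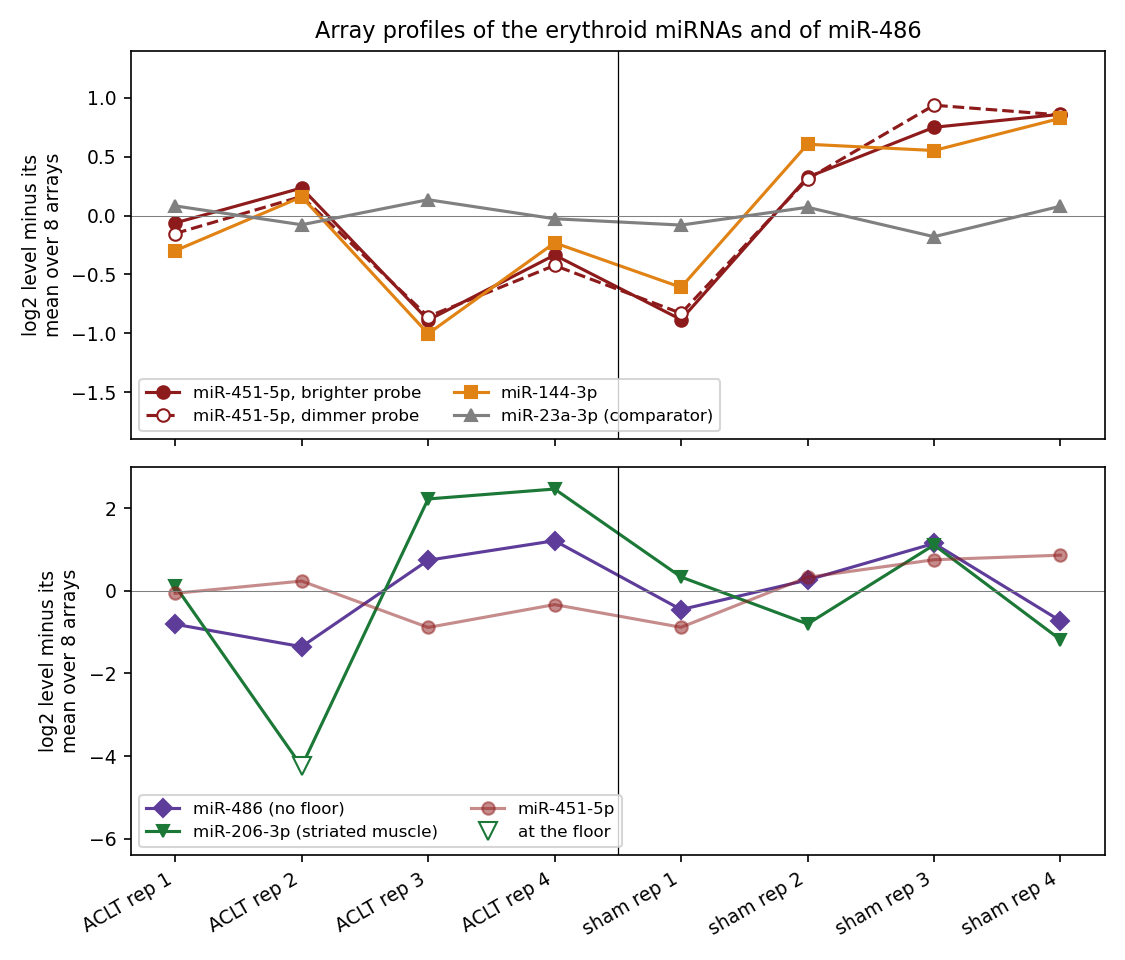
Log2 level minus its own mean over the 8 arrays (vertical axis) on each array, ACLT replicates left of the line and sham replicates right of it. In the upper panel both miR-451-5p probes and miR-144-3p share their ups and downs while miR-23a-3p stays close to 0; in the lower panel miR-486, drawn without the floor, is highest on ACLT replicates 3 and 4 and sham replicate 3, where miR-206-3p is highest too (open triangle at the floor).

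The ratio of miR-451-5p to miR-23a-3p, a miRNA little affected by red cells, is used in plasma to judge haemolysis. It does not depend on the scaling, but whether it measures blood in synovial tissue was not tested. Scaled miR-23a-3p itself varied by only 1.24-fold over the arrays, so the ratio stays close to scaled miR-451-5p and adds little to it. Relative to its mean over all arrays, the log2 ratio was -0.14, 0.31, -1.02 and -0.31 on ACLT replicates 1 to 4, against -0.80, 0.26, 0.93 and 0.78 on sham replicates 1 to 4. Sham replicates 3 and 4 were highest and ACLT replicate 3 and sham replicate 1 lowest, and the groups overlapped. The ratio ranged over 3.87-fold between arrays. Its mean was -0.29 ± 0.55 in ACLT samples and 0.29 ± 0.78 in sham samples (SD, n = 4 each), a difference of -0.58 (exact two-sided permutation p = 0.314, the smallest possible being 0.0286). Against miR-16-5p, miR-126a-3p, miR-142-3p or miR-143-3p instead, comparators added after the values were seen, the difference was -0.33, -0.32, -0.38 and -0.23, and the range 2.77-fold to 4.06-fold. Blood cells themselves hold miR-16-5p and miR-142-3p, so a ratio to either is not a separate measure of blood.

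The difference was not alike in the 2 rows of the slide. Row 1 held replicates 1 and 2 of each group, and there miR-451-5p averaged -0.52 in ACLT samples and -0.89 in sham samples, a difference of 0.36. In row 2 it averaged -1.22 in ACLT samples and 0.20 in sham samples, a difference of -1.42 (limma adjusted p = 0.482). For miR-144-3p the differences were -0.07 in row 1 and -1.31 in row 2. Whether the rows differ was not tested. Single arrays mattered as well: the difference of miR-451-5p was -0.32 without ACLT replicate 3, whereas it came to -0.91 when sham replicate 1 was left out and to -0.33 when sham replicate 4 was. Leaving out the 3 brightest arrays, a choice made after the values were seen, gave -0.68. Scaling by a percentile of all probes, dim ones included, shrank the difference to -0.15 for miR-451-5p and to -0.31 for miR-144-3p.

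**Figure D3:**
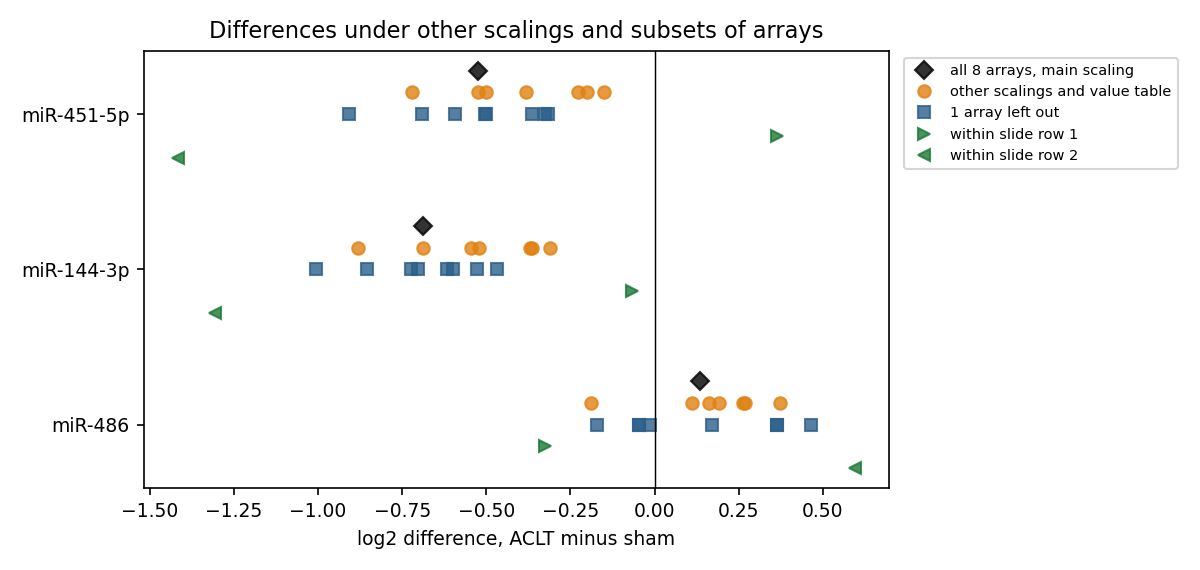
Log2 difference, ACLT minus sham (horizontal axis), of miR-451-5p, miR-144-3p and miR-486 on all 8 arrays, under other scalings and the authors' value table, with each array left out, and within each slide row. miR-451-5p and miR-144-3p lie below 0 except for miR-451-5p within row 1 (0.36), while miR-486 falls on both sides of 0.

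Of 14 other miRNAs linked to red cells or haemolysis, 7 were tested and 0 passed by limma. The difference was below 0 for 6 of the 7, against 64.6% of all tested miRNAs, and their median was -0.17. miR-16-5p, plentiful in red cells but also in most tissues, was at 1.76 ± 0.34 in ACLT samples and 1.96 ± 0.29 in sham samples (SD, n = 4 each), a difference of -0.20. miR-92a-3p and miR-25-3p, both of which are abundant in red cells, differed by -0.17 each and miR-15b-5p by 0.02. The value for miR-92a-3p is set in part by the floor, where it lay on ACLT replicate 3 and sham replicate 1. miR-15a-5p, which shares its seed with miR-16-5p, had the lowest difference of the 7, -0.26. miR-106b-5p and miR-20a-5p, of the miR-17 family, differed by -0.13 and -0.11.

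Of 6 miRNAs listed as leukocyte markers 4 were tested, and 0 passed an adjusted p of 0.05 by limma. The difference was below 0 for 4 of 4 (median -0.18), a sign shared by 64.6% of all tested miRNAs. miR-142-3p, found in all blood cells, was at -4.00, -3.50, -3.88 and -4.00 on ACLT replicates 1 to 4, against -4.02, -3.75, -3.71 and -3.30 on sham replicates 1 to 4. Its r with miR-451-5p was 0.757 (exact permutation p = 0.0302, adjusted p = 0.0605 over 8 relations; rho 0.762, exact permutation p = 0.0368, adjusted p = 0.0917), and 0.794 without the 2 farthest arrays. miR-223-3p, of myeloid cells, differed by -0.32 (limma adjusted p = 0.645), miR-150-5p, of lymphocytes, by -0.21 and miR-146a-5p, induced in inflammation, by -0.13. On ACLT replicate 1 miR-150-5p was at the floor. The endothelial miR-126a-3p differed by -0.20, and its r with miR-451-5p was 0.566 (exact permutation p = 0.142, adjusted p = 0.227; rho 0.714, exact permutation p = 0.0576, adjusted p = 0.0921) and 0.385 without the 2 farthest arrays. miR-143-3p, of smooth muscle and other cells of the vessel wall, differed by -0.30. All these differences share the scaling, and other scalings put the median of all tested miRNAs anywhere between -0.26 (spike-in) and 0.25 (75th percentile over all probes). The part of leukocyte and vessel content in the levels of miR-451-5p and miR-144-3p was not tested.

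**Figure D4:**
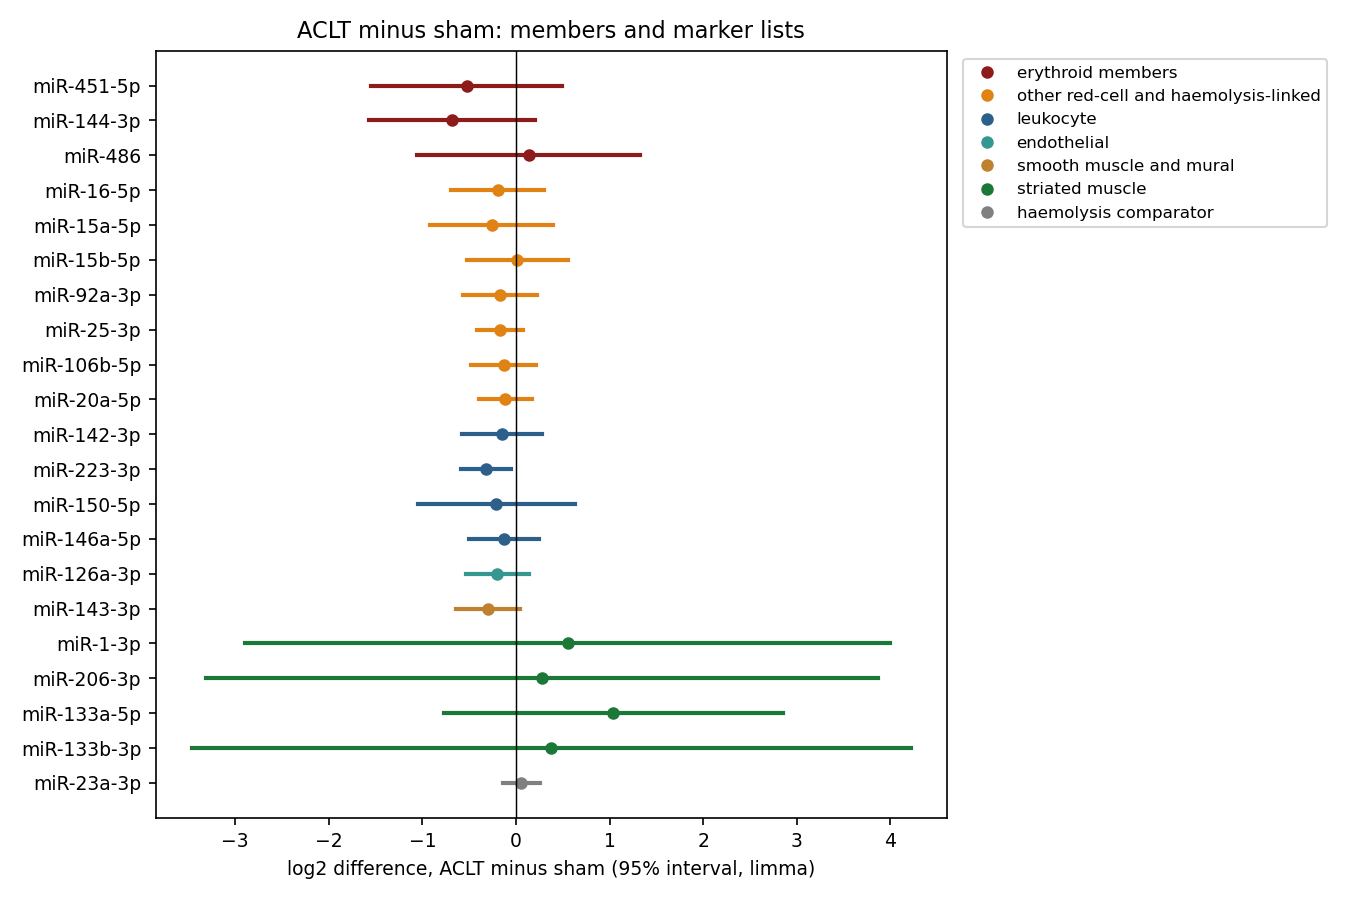
Log2 difference, ACLT minus sham (horizontal axis), with the 95% interval from limma, for the 3 tested members and every tested miRNA of the marker lists. Points of red cell, leukocyte and endothelial miRNAs lie mostly below 0, and every interval but that of miR-223-3p includes 0.

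Of 76 tested miRNAs outside the 4 that were above the floor on all arrays, the patterns most like that of miR-451-5p, by Pearson's r over 8 arrays, were those of miR-10a-5p (0.914), miR-142-3p (0.757) and miR-19b-3p (0.749). miR-10a-5p, of a Hox gene cluster, varied by 1.80-fold, being lowest on ACLT replicate 3 (-3.66) and highest on sham replicate 4 (-2.81).

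Striated muscle miRNAs were also on the tissue's arrays: 4 of 8 listed were tested, and 0 passed by limma. The difference was above 0 for 4 of 4 (median 0.47), against 33.6% of all tested miRNAs. The 4 differences ran from 0.27 to 1.04, with SE of 0.77 to 1.63, and every limma interval included 0. On ACLT replicate 2 all 4 were at the floor or close to it. A rise of muscle miRNAs after ACLT was therefore not shown. miR-486 was set against these muscle miRNAs after its values were seen, using levels without the floor. Its log2 level was then -4.90, -5.44, -3.35 and -2.88 on ACLT replicates 1 to 4, against -4.54, -3.83, -2.94 and -4.82 on sham replicates 1 to 4. The levels of miR-206-3p, of skeletal muscle, are given here with the floor. They were -0.11, the floor, 2.00 and 2.24 on ACLT replicates 1 to 4, against 0.11, -1.03, 0.88 and -1.41 on sham replicates 1 to 4. The same 3 arrays, ACLT replicates 3 and 4 and sham replicate 3, were highest for miR-486 and for miR-206-3p. Pearson's r between them, both without the floor, was 0.816 (exact permutation p = 0.0068, adjusted p = 0.0274 over 8 relations) and rho 0.857 (exact permutation p = 0.0107, adjusted p = 0.0429). Without ACLT replicates 2 and 4, the arrays farthest from the median of miR-486, r was 0.643, and with unscaled signals it was 0.454, so its size depends on the scaling and on those arrays. The part of muscle RNA in the level of miR-486 was not tested.

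With miR-133b-3p, another skeletal muscle miRNA, r was 0.738 (exact permutation p = 0.0227, adjusted p = 0.0605; rho 0.738, exact permutation p = 0.0458, adjusted p = 0.0917). It was 0.429 without those arrays and 0.554 with unscaled signals. With its red cell partners miR-486 had an r of -0.13 for miR-451-5p (exact permutation p = 0.739, adjusted p = 0.769; rho -0.19, exact permutation p = 0.665, adjusted p = 0.759) and -0.12 for miR-144-3p (exact permutation p = 0.769, adjusted p = 0.769; rho -0.10, exact permutation p = 0.840, adjusted p = 0.840). With unscaled signals, which share the array's brightness, the sign turned, to an r of 0.376 for miR-451-5p and 0.306 for miR-144-3p. Of 110 tested miRNAs, those most like miR-486 in scaled level without the floor were miR-30c-5p (r = 0.961), miR-30a-5p (0.960) and miR-378b (0.936). Scaling widened the range of miR-486 from 3.71-fold to 5.92-fold, and no unscaled r was computed for these miRNAs. Thus of the 4 named as erythroid, miR-451-5p and miR-144-3p varied together on these arrays, miR-144-5p was too dim to tell, and for miR-486 no relation to either was shown. On levels with the floor, miR-451-5p itself had an r of -0.45 with miR-206-3p (exact permutation p = 0.267, adjusted p = 0.356; rho -0.57, exact permutation p = 0.151, adjusted p = 0.201), and -0.29 without the 2 farthest arrays.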

How the data were processed

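Total RNA from rat synovial tissue was measured on 8 single-colour (Cy3) arrays on 1 slide, 4 ACLT and 4 sham by title. Per the file headers, the authors extracted spot values under protocol miRNA_107_Sep09 (Feature Extraction 10.7.3.1; design 070154). The deposited processed signal is an intensity, background-subtracted and not scaled between arrays, and the authors' deposited value table equals the summary per miRNA exactly (largest difference 0).

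Outlier and control spots were left out (9.01% to 11.1% of spots per array flagged) and the spots of a probe averaged. Scaling divided each array's signals by their 75th percentile, computed on 136 probes that were well above background on every array. Values below a floor of 0.0449, the median over arrays of the lowest signal well above background, were raised to it before log2. The brightest probe represents a miRNA. The 113 miRNAs detected on every array of either group were tested with limma 3.58.1 in R 4.3.3 (lmFit, eBayes, no covariate) and Benjamini-Hochberg adjustment at 0.05. Ratios were compared by exact permutation over 70 arrangements, correlations over 40320 pairings. Only the limma step was tested on simulated log2 values. Scaling, floor, detection filter, probe choice, ratio permutations and correlations were not. Hairpins were folded with RNAfold 2.7.2.

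Named were all members, the 3 miRNAs most like miR-451-5p, and the tested miRNAs of 6 marker lists, by a written rule; members and lists were chosen with earlier results of these data known. The neighbours of miR-486, the relations of miR-486, miR-451-3p and the miR-101 miRNAs were added after their values were seen. Alternatives were other scalings, probe summaries, floors, filters, variance models, slide row, replicate number and leaving out each array. Normexp was run on median signals in place of mean signals.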

Additional observations from a re-analysis of the deposited data

How the results depend on the processing

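All alternatives for miR-144-3p gave a negative difference (-1.31 to -0.07; smallest adjusted p = 0.428 by limma), and those for miR-451-5p did except within slide row 1 (0.36), as did the ratio of miR-451-5p to miR-23a-3p (also 0.36). Other scalings gave -0.72 to -0.15 for miR-451-5p and -0.88 to -0.31 for miR-144-3p, both smallest when dim probes entered the percentile. With each array left out in turn, miR-451-5p ran from -0.91 to -0.32, miR-144-3p from -1.01 to -0.47 and the ratio from -0.95 to -0.34. miR-486 kept no sign: it was -0.19 with labelling spike-in scaling, -0.11 with the floor at 0.5 of its value, -0.32 within slide row 1, and -0.17 to 0.47 with each array left out. For miR-144-5p, at the floor throughout otherwise, the difference was -0.10 without scaling, -0.0499 when the percentile was taken over all probes, and -0.21 in the authors' value table, which gives 0.1 to undetected miRNAs. The number of miRNAs past an adjusted p of 0.05 was 0 except 1 in that table (miR-466d) and 4 within slide row 1 (miR-1224, miR-181b-5p, miR-466b-5p and miR-652-5p), none of them a member; the cause was not tested. Replicate numbers were shared between groups, and the deviations of same-numbered arrays from their group means gave mixed correlations (-0.19, 0.59, 0.80 and -0.41 for replicates 1 to 4), which do not establish a pairing. With the replicate block, miR-451-5p had an adjusted p of 0.890, miR-144-3p of 0.704 and miR-486 of 0.955 by limma, with 0 calls. The dimmer probe gave no value for miR-144-3p or miR-144-5p, being at the floor everywhere. Signal over background limits miR-144-5p, well above background on 1 array. miR-486 was well above background on 7 of 8 arrays, and is limited by the floor, where it lay on 4 arrays after scaling.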
